A study of Mus musculus with 6 samples.

Results

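Collagens are the trimeric, triple-helical proteins that make up most of the fibrous extracellular matrix, and each chain is encoded by its own Col gene. The 44 collagen genes described here were picked by a rule on names that used no measured value, with earlier results of these data known. They are all symbols in the deposited table of 24062 that consist of Col, a type number, the letter a and a chain number. Of these, 41 passed the filter on low counts and were among the 13629 genes tested. The other 3, Col6a4, Col19a1 and Col10a1, were counted but too rare to test. The data are RNA-seq read counts from heart ventricles (both sides) of male C57/Bl6N mice, all 1 day old. The control group was 3 libraries labelled CreNEG, and the Med12cKO group was 3 libraries labelled CrePOS, from mice with Med12 deleted in the heart. Med12 encodes a subunit of the kinase module of Mediator, a coactivator of transcription. The label CrePOS applies to the knockout group alone, and the presence of Cre recombinase and the loss of Med12 therefore cannot be told apart. The promoter behind Cre, the Med12 allele of the controls and the animal behind each library are not given in the sources used here. P-values therefore measure the spread between these libraries.

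Fibrillar collagens of types I, III and V form the load-bearing fibres between heart muscle cells and are made mainly by fibroblasts. Type IV forms the sheet-like network of basement membranes around muscle cells and vessels, and type VI forms beaded filaments that connect basement membranes with fibres. Chains are hydroxylated and folded in the endoplasmic reticulum, trimmed outside the cell, cross-linked by lysyl oxidases and read by integrin and discoidin domain receptors. In bulk ventricle tissue, fewer cells of a type and less RNA per cell cannot be told apart.

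Depth ran from 8453346 to 10911698 counts per library. Values are TMM-scaled CPM, that is counts divided by the scaled library total, given as mean ± SD where a mean is printed, and levels of different genes are compared as CPM per kilobase of transcript. Med12 itself measured 103, 175 and 113 CPM in control libraries 1 to 3 and 61.5, 84.8 and 41.2 CPM in Med12cKO libraries 1 to 3, with every knockout library below every control. Its log2 fold change was −1.06 (SE 0.30, adjusted p = 0.765 in edgeR's quasi-likelihood test and 0.0228 in DESeq2). Transcripts of other tissues differed between libraries. The 10 T-cell genes of the thymus list summed to 672 CPM in control library 3 and 680.1 CPM in Med12cKO library 1, against 2.38 to 3.79 CPM in the other 4. Skeletal muscle genes summed to 207 CPM in Med12cKO library 1 and 33.7 to 43.5 CPM in the other 5. All 8 heart muscle cell genes had a negative log2 fold change (median −0.26), where 52.2% of all genes tested had a positive one. For 1 of them every knockout library was below all controls, where 3.64% of all genes were. By edgeR's adjusted p 0 of the 8 were called, where 0.022% of all genes were. With a covariate marking the 2 libraries with T-cell transcripts, 0 collagens were called. The part of the other values in the collagen results was not tested.

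No collagen gene passed the test between Med12cKO and control ventricles. At an adjusted p under 0.05 (edgeR quasi-likelihood test with Benjamini-Hochberg over all genes), 0 of 41 were called, where 0.022% of all tested genes were. The lowest adjusted p among them was 0.9999. DESeq2 also called 0, of the 35 collagens to which it gave an adjusted p, where it called 0.539% of all genes. By edgeR's unadjusted p under 0.05 there were 2 collagens higher, Col8a1 and Col22a1, and 0 lower, against 2.16% and 1.61% of all genes, and DESeq2 had 0 at an unadjusted p under 0.05. The 3 knockout libraries lay above all 3 controls for 3 genes, Col8a1, Col11a1 and Col22a1, or 7.32% of the collagens tested, where 4.59% of all genes did, and below them for 0, where 3.64% of all genes did.

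The sizes of the differences were small for most chains. For 35 of the 41 genes the log2 fold change was within 0.3 of zero (85.4%, and 86.8% of all genes tested). The extremes were −0.48 and 1.04. In 33 genes the 95% interval of the log2 fold change lay within 1 unit of zero, that is within a 2-fold change in either direction. Among the 10 most abundant chains per kilobase, these intervals spanned no more than −0.43 to 0.61. The signs leaned upward, with 30 of 41 at a positive value and a median of 0.08, beside 52.2% positive and a median of 0.01 over all genes. In the fit without Med12cKO library 2 the lean was absent, with 16 of 41 positive and a median of −0.03. In the 4 libraries whose description begins with the letter I, 18 were positive and the median was −0.02. These leave out control library 1 and Med12cKO library 2. Med12cKO library 2 was the highest knockout library for 27 of the 41 genes, so leaving it out lowers their fold changes by construction. The fits are therefore no test of where the lean comes from. Above the control mean were 27, 29 and 14 of the 41 genes in Med12cKO libraries 1 to 3. The 8 smooth muscle and pericyte genes also summed highest in Med12cKO library 2, at 2360.1 CPM against 1092 to 1646 CPM in the other 5. Of these 8 genes 0 were called. A positive log2 fold change was found for 5, with Acta2 at 0.99, Tagln at 0.67, Myh11 at 0.52, Cspg4 at 0.08 and Rgs5 at 0.001. The other 3 were negative, with Pdgfrb at −0.27, Kcnj8 at −0.31 and Abcc9 at −0.15. By edgeR's unadjusted p under 0.05, 2 of the 8 were higher and 1 lower, against 2.16% and 1.61% of all genes. Kcnj8 alone of the 8 had separated groups, with the knockout libraries below all controls, where 3.64% of all genes had them. Acta2 made up 1226 CPM of the sum in Med12cKO library 2. Myh11, a defining gene of smooth muscle, measured 45.1, 52.8 and 42.6 CPM in control libraries 1 to 3 and 45.4, 116 and 39.2 CPM in Med12cKO libraries 1 to 3. The part of these cells in the collagen values was not tested.

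**Figure D1:**
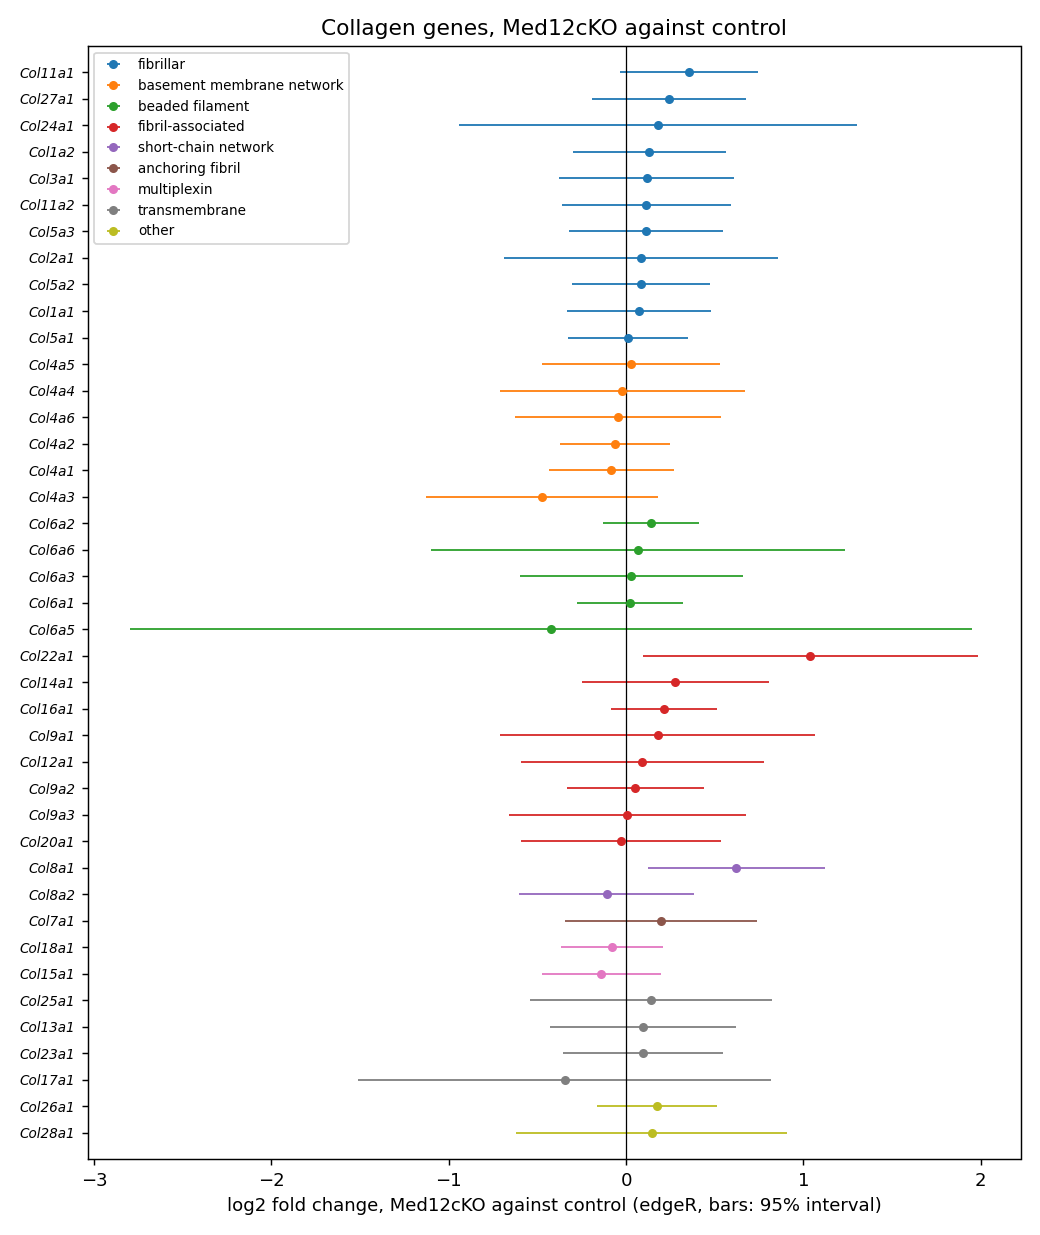
Log2 fold change of each of the 41 tested collagen genes, Med12cKO against control, coloured by structural class, with 95% intervals from edgeR (3 libraries per group). All intervals include 0 except those of Col8a1 and Col22a1, and neither passed after adjustment over all genes.

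Collagen reads made up 1.36%, 1.36% and 1.47% of all counts in control libraries 1 to 3 and 1.66%, 1.64% and 1.16% in Med12cKO libraries 1 to 3. The knockout libraries thus held both the highest shares and the lowest. Col1a1, Col1a2, Col3a1, Col4a1 and Col4a2 together took 72.3% to 75.9% of the collagen reads in the 6 libraries. Levels per kilobase spanned from 651 CPM per kilobase for Col3a1 in control to 0.105 for Col22a1, on this scale the lowest of the collagens tested. Type II, the collagen of cartilage, was near the bottom of this order. Col2a1 had 11, 16 and 20 counts in control libraries 1 to 3 and 16, 13 and 18 in Med12cKO libraries 1 to 3.

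**Figure D2:**
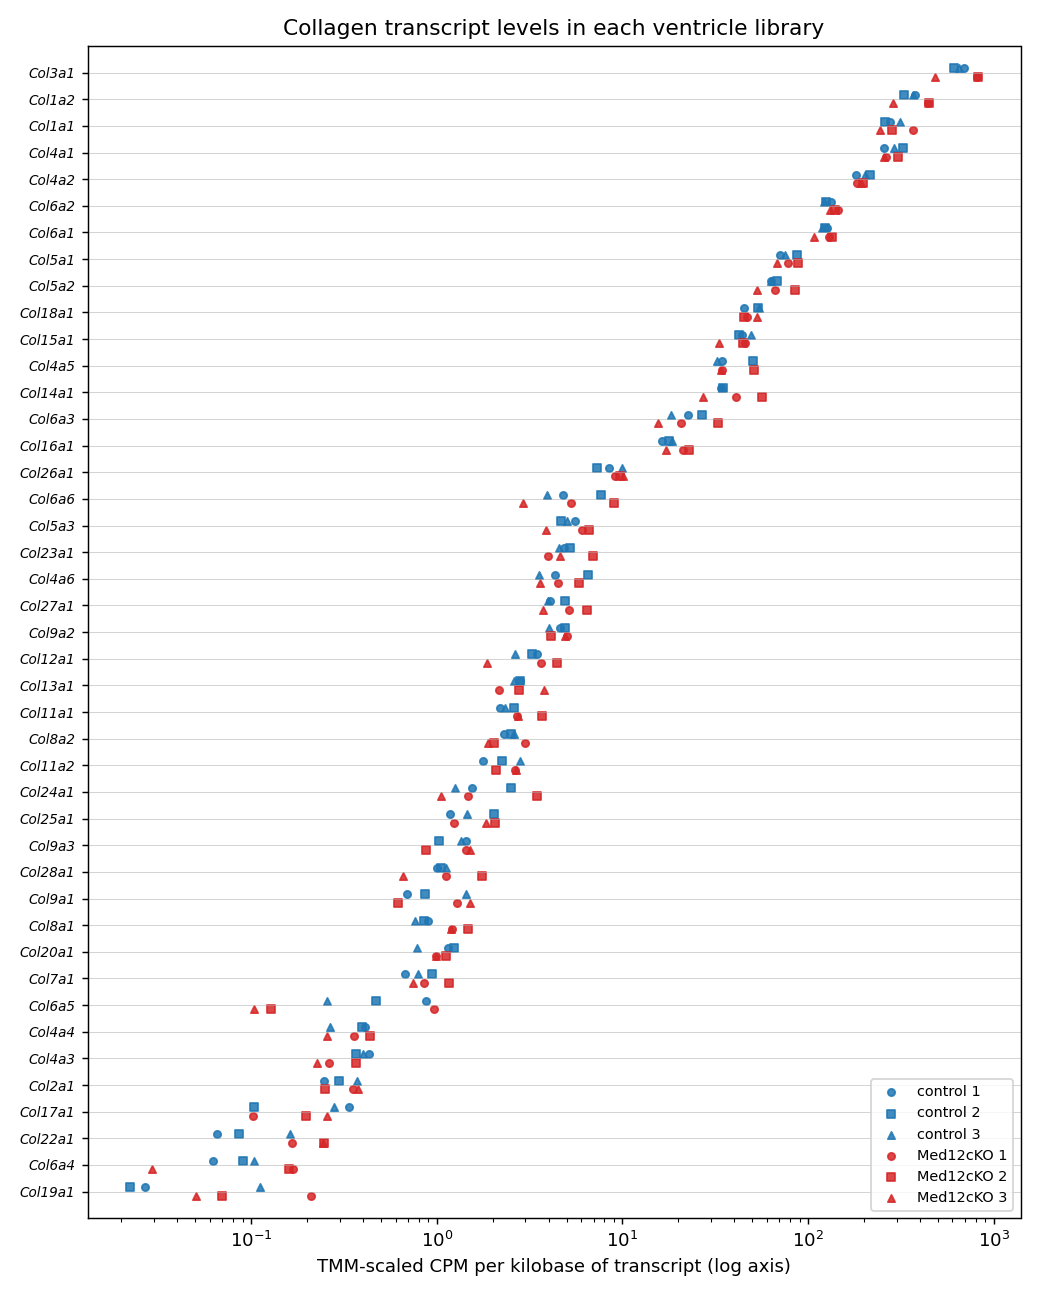
Level of each collagen gene in each of the 6 libraries, as TMM-scaled CPM per kilobase of transcript on a log axis, in order of the mean over libraries (blue, control; red, Med12cKO; marker shape, library number). Col10a1 is left out because most of its counts are 0, and the red points overlap the blue ones in every row except those of Col8a1, Col11a1 and Col22a1.

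The fibrillar class held the most abundant collagens. All 11 of its members were tested, 0 were called, and every log2 fold change was above zero in the fit of all 6 libraries, with a median of 0.11. Col3a1 encodes the single chain of type III, the fine reticular fibre of distensible tissue (chromosome 1, 45311538 to 45349706, plus strand, GRCm38). It measured 3859.6, 3388 and 3625 CPM in control libraries 1 to 3 and 4501, 4588 and 2687 CPM in Med12cKO libraries 1 to 3. Med12cKO libraries 1 and 2 lay above all controls and library 3 below all of them, so the groups overlap and the mean, 3624 ± 236 against 3926 ± 1073 CPM (SD, n = 3), differed by less than the SD of the knockout group. Its log2 fold change was 0.12 (SE 0.22, 95% interval −0.38 to 0.61).

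Type I, the stiff fibre of the ventricular wall, is built from the products of Col1a1 and Col1a2. Col1a1, which supplies most of the chains in the usual trimer, measured 1644, 1537 and 1854 CPM in control libraries 1 to 3 and 2168, 1685 and 1445 CPM in Med12cKO libraries 1 to 3. Its log2 fold change was 0.07 (SE 0.18, 95% interval −0.33 to 0.48). Med12cKO library 1 was above every control, library 2 among them and library 3 below them. The partner chain gene Col1a2 measured 2015, 1769 and 1969 CPM in control libraries 1 to 3 and 2355, 2404 and 1544 CPM in Med12cKO libraries 1 to 3. Here too Med12cKO libraries 1 and 2 were above every control and library 3 below every control, and the log2 fold change was 0.13 (SE 0.19, 95% interval −0.30 to 0.57). Col3a1 and Col1a2 showed the same library order, with Med12cKO library 3 lowest and libraries 1 and 2 highest.

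Type V chains join type I in mixed fibrils and limit their diameter. Col5a1 measured 596, 732 and 632 CPM in control libraries 1 to 3 and 658, 746 and 570.3 CPM in Med12cKO libraries 1 to 3, with overlapping groups and a log2 fold change of 0.01 (SE 0.15, 95% interval −0.33 to 0.35). Col5a2 measured 417, 450.0 and 417 CPM in control libraries 1 to 3 and 442, 565 and 353 CPM in Med12cKO libraries 1 to 3. Med12cKO library 2 was its highest and library 3 its lowest, on either side of the 3 controls, and the log2 fold change was 0.08 (SE 0.17, 95% interval −0.30 to 0.47). The minor chain Col5a3 measured 34.1, 28.5 and 30.9 CPM in control libraries 1 to 3 and 36.9, 40.4 and 23.8 CPM in Med12cKO libraries 1 to 3, also highest in Med12cKO library 2 and lowest in library 3. Of the type XI chains, which play the role of type V in cartilage, Col11a1 was one of the 3 genes with separated groups. It measured 16.9, 20.1 and 17.9 CPM in control libraries 1 to 3 and 20.7, 28.5 and 21.1 CPM in Med12cKO libraries 1 to 3, a log2 fold change of 0.36 (SE 0.17, 95% interval −0.03 to 0.74) at an unadjusted p of 0.0680 in edgeR's test. Without Med12cKO library 2 that value was 0.19. Col11a2 measured 12.3 ± 2.78 against 13.3 ± 1.80 CPM (SD, n = 3). The remaining fibrillar genes were Col24a1 and Col27a1, at log2 fold changes of 0.18 and 0.24, and Col24a1 varied 3.29-fold between its lowest library and its highest.

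The 6 type IV genes lie in 3 head-to-head pairs, so that the genes of a pair are transcribed outward from a shared start region, and the stretches at or just before their starts are shown. The gene models of Col4a1 and Col4a2 overlap by 22 bases at their 5′ ends. Those of Col4a4 and Col4a3 are 71 bases apart, and those of Col4a6 and Col4a5 are 1308 bases apart, of which the 100 bases before each start are given. Col3a1, the most abundant collagen, is shown as a single gene, with the 130 bases before its start. This stretch is longer than the 100 bases given for Col4a5 and for Col4a6. Sequences are from RefSeq's promoter windows (GRCm38.p6), start sites from GENCODE M21, and each is written 5′ to 3′ on the strand named. Capitals mark a GC box (GGGCGG, which reads CCGCCC from the other strand). They also mark a CCAAT box (CCAAT, which reads ATTGG from the other strand). The last motif marked is a TATA box (TATAAA, which reads TTTATA from the other strand).
Col4a2 and Col4a1 overlap, chr8:11312805-11312826, plus strand: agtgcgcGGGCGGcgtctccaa
Col4a4 and Col4a3 interval, chr1:82586850-82586920, minus strand: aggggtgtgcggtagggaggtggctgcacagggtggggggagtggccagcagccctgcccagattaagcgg
Col4a5 upstream, chrX:141475285-141475384, plus strand: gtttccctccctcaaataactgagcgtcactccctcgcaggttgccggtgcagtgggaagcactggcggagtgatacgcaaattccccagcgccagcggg
Col4a6 upstream, chrX:141474077-141474176, minus strand: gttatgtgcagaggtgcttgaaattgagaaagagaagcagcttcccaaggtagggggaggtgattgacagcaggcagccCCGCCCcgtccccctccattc
Col3a1 upstream, chr1:45311408-45311537, plus strand: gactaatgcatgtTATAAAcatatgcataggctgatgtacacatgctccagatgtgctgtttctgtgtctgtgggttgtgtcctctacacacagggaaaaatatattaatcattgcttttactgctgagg

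In these stretches the Col4a1/Col4a2 overlap and the Col4a6 side hold a GC box and the Col3a1 stretch a TATA box. The TATA box begins at base 14 of the 130 shown, and the rest of that stretch holds no marked motif. A Col3a1 stretch as short as those of Col4a5 and Col4a6 would therefore leave it out. Stretches of unequal length allow no contrast of motifs between the genes. The RefSeq table had 38 start windows of 300 bases for 35 of the 44 collagen genes. A GC box on either strand was in 60.5% of them, against 35.7% of all 32851 windows. A CCAAT box was in 34.2%, against 37.4%, and a TATA box in 13.2%, against 13.6%. A match describes these letters and does not show a bound site.

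The basement membrane class had 6 tested members, 5 of them with a negative log2 fold change (median −0.05) and none called. Of these 5, Col4a4 was at 0.02 when library totals replaced TMM scaling. Without control library 2, Col4a1 was at 0.005, Col4a2 at 0.003, Col4a6 at 0.24 and Col4a4 at 0.06, while Col4a3 was at −0.53. Col4a1 and Col4a2 encode the chains of the network found in nearly all basement membranes. Col4a1 measured 1692, 2145 and 1931 CPM in control libraries 1 to 3 and 1749, 2012 and 1688 CPM in Med12cKO libraries 1 to 3. The groups overlap, and the log2 fold change was −0.08 (SE 0.16, 95% interval −0.43 to 0.27). Col4a2 measured 1168, 1399.5 and 1302 CPM in control libraries 1 to 3 and 1179, 1283 and 1247 CPM in Med12cKO libraries 1 to 3, at a log2 fold change of −0.06 (SE 0.14, 95% interval −0.37 to 0.25). Both genes were highest in control library 2 and lowest in control library 1 or Med12cKO library 3, and they were among the collagens with the narrowest spread over libraries.

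Col4a5 and Col4a6, the X-linked pair found in more specialised basement membranes, were less abundant. Col4a5 measured 224, 329.6 and 210.3 CPM in control libraries 1 to 3 and 224, 334 and 221 CPM in Med12cKO libraries 1 to 3. Control library 2 and Med12cKO library 2 stood above the other 4, and each genotype had 1 high library. Col4a6 had the same pattern at 28.9, 43.5 and 23.6 CPM in control libraries 1 to 3 and 30.1, 39.00 and 24.1 CPM in Med12cKO libraries 1 to 3. Col4a3 and Col4a4, the chains known from the kidney glomerulus, were close to the limit of the test. Col4a3 measured 3.68, 3.138 and 3.44 CPM in control libraries 1 to 3 and 2.25, 3.15 and 1.93 CPM in Med12cKO libraries 1 to 3, a log2 fold change of −0.48 (SE 0.29, 95% interval −1.13 to 0.18), the most negative of any collagen tested, with groups that overlap narrowly. Its neighbour Col4a4 measured 4.13, 3.99 and 2.67 CPM in control libraries 1 to 3 and 3.60, 4.43 and 2.58 CPM in Med12cKO libraries 1 to 3, with overlapping groups and a log2 fold change of −0.02 (SE 0.31, 95% interval −0.71 to 0.67). C430014B12Rik, an oppositely transcribed gene model, covers 5.65% of the exon bases of Col4a3, and reads of Col4a3 and C430014B12Rik may be mixed.

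Type VI collagen, the beaded filament that ties basement membranes to fibres, had 6 members and 5 tested, 4 of them positive (median log2 fold change 0.03, none called). Its core chains Col6a1 and Col6a2 were among the steadiest collagens. Col6a1 measured 516, 507 and 485 CPM in control libraries 1 to 3 and 533, 555 and 441 CPM in Med12cKO libraries 1 to 3, a log2 fold change of 0.02 (SE 0.13, 95% interval −0.28 to 0.32). Col6a2 measured 522, 491 and 480.1 CPM in control libraries 1 to 3 and 575, 553 and 519 CPM in Med12cKO libraries 1 to 3. Med12cKO libraries 1 and 2 lay above every control and library 3 just below the highest control. Its log2 fold change was 0.14 (SE 0.12, 95% interval −0.13 to 0.41). The gene of the longest core chain, Col6a3, was more variable, at 204, 240.4 and 164 CPM in control libraries 1 to 3 and 186, 294 and 140.4 CPM in Med12cKO libraries 1 to 3. It was highest in library 2 of each group.

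The remaining chains can take the place of the Col6a3 product. Col6a6 measured 42.2, 67.7 and 34.6 CPM in control libraries 1 to 3 and 46.3, 79.4 and 25.6 CPM in Med12cKO libraries 1 to 3, with library 2 of each group highest again and Med12cKO library 3 lowest. Col6a5 had the widest spread of the genes tested, at 8.15, 4.37 and 2.39 CPM in control libraries 1 to 3 and 9.004, 1.18 and 0.967 CPM in Med12cKO libraries 1 to 3. Control library 1 and Med12cKO library 1 were high, and Med12cKO libraries 2 and 3 were low, a 9.31-fold range, and the interval of its log2 fold change is the widest of the family, at −0.42 (SE 0.96, 95% interval −2.80 to 1.95). Without Med12cKO library 1 the value was −2.19, and without control library 1 it was 0.13. Col6a4 was not tested, with 4, 7 and 8 counts in control libraries 1 to 3 and 11, 12 and 2 in Med12cKO libraries 1 to 3.

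Fibril-associated collagens, short interrupted helices that decorate the surface of fibrils, had 9 members and 8 tested, 7 of them positive (median log2 fold change 0.14, none called). Col14a1, the most abundant per kilobase, measured 194, 197 and 195 CPM in control libraries 1 to 3 and 233, 322 and 155 CPM in Med12cKO libraries 1 to 3. The controls lay close to one another while the knockout libraries spread to both sides of them, and the log2 fold change was 0.28 (SE 0.23, 95% interval −0.25 to 0.80). Col16a1 measured 91.6 ± 5.49 against 106 ± 15.5 CPM (SD, n = 3) and Col12a1 35.96 ± 4.93 against 38.3 ± 15.4 CPM (SD, n = 3), with log2 fold changes of 0.21 and 0.09. Col22a1, known from the junctions of muscle with tendon, had the largest value of any collagen at 1.04 (SE 0.42, 95% interval 0.09 to 1.98), on few reads. It had 5, 8 and 15 counts in control libraries 1 to 3 and 13, 22 and 20 in Med12cKO libraries 1 to 3, which is 0.574, 0.761 and 1.43 CPM in control libraries 1 to 3 and 1.46, 2.17 and 2.15 CPM in Med12cKO libraries 1 to 3. The highest control was just below the lowest knockout library. Its unadjusted p was 0.0345 in edgeR's test and 0.117 in DESeq2. Med12cKO library 1, with the highest sum of skeletal muscle genes, was the lowest of the knockout libraries for this gene, on 13 reads. The part of skeletal muscle in the Col22a1 values was not tested.

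The type IX chains of cartilage were low, and Col9a1 and Col9a3 were lowest in Med12cKO library 2, where most collagens were highest. Col9a1 measured 3.84 ± 1.51 against 4.37 ± 1.79 CPM (SD, n = 3), Col9a3 3.87 ± 0.646 against 3.89 ± 1.07 CPM (SD, n = 3) and Col9a2 13.2 ± 1.30 against 13.7 ± 1.45 CPM (SD, n = 3). Their log2 fold changes were 0.18, 0.01 and 0.05. Col20a1 measured 5.28 ± 1.202 against 5.17 ± 0.385 CPM (SD, n = 3). Col19a1 was not tested, with 1, 1 and 5 counts in control libraries 1 to 3 and 8, 3 and 2 in Med12cKO libraries 1 to 3.

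Type VIII collagen forms short-chain lattices in vessels and heart valves, and its genes are Col8a1 and Col8a2. Col8a1 measured 4.59, 4.37 and 3.91 CPM in control libraries 1 to 3 and 6.19, 7.48 and 6.12 CPM in Med12cKO libraries 1 to 3. All knockout libraries lay above all controls, 4.29 ± 0.347 against 6.60 ± 0.768 CPM (SD, n = 3). The log2 fold change was 0.62 (SE 0.22, 95% interval 0.12 to 1.12), at an unadjusted p of 0.0200 in edgeR's test and 0.0586 in DESeq2. Over the alternatives and left-out libraries the log2 fold change ranged from 0.52 to 0.67. Its adjusted p there was 0.598 to 1.00 in edgeR, limma or DESeq2. Because the groups are separated, a fit that leaves out 1 library keeps the sign by construction. Each CPM value rests on 40 to 76 reads. Col8a2 did not share this direction, at 9.99, 10.8 and 11.4 CPM in control libraries 1 to 3 and 12.9, 8.76 and 8.16 CPM in Med12cKO libraries 1 to 3 and a log2 fold change of −0.11 (SE 0.22, 95% interval −0.60 to 0.38). The difference between the 2 chains was not tested. Col10a1, a short-chain collagen and a marker of growth-plate cartilage, had 0, 1 and 0 counts in control libraries 1 to 3 and 2, 0 and 0 in Med12cKO libraries 1 to 3. In 4 libraries the count was 0, which allows up to 0.286 to 0.345 CPM there, counting error only.

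The multiplexins Col15a1 and Col18a1 sit in basement membrane zones of muscle and vessels, and fragments of both are known to restrain vessel growth. Both had a negative log2 fold change. Col15a1 measured 228, 220.1 and 256 CPM in control libraries 1 to 3 and 237, 231 and 171 CPM in Med12cKO libraries 1 to 3, with Med12cKO library 3 below the rest, at −0.14 (SE 0.15, 95% interval −0.47 to 0.19). Col18a1 measured 217, 257 and 259.8 CPM in control libraries 1 to 3 and 224, 216 and 255 CPM in Med12cKO libraries 1 to 3, with groups that overlap, at −0.08 (SE 0.13, 95% interval −0.36 to 0.21). Col7a1, the anchoring fibril of skin, measured 7.43 ± 1.27 against 8.53 ± 2.06 CPM (SD, n = 3). Of the transmembrane collagens, Col23a1 measured 27.6 ± 1.85 against 29.4 ± 8.83 CPM (SD, n = 3), Col13a1 8.63 ± 0.366 against 9.22 ± 2.61 CPM (SD, n = 3) and Col25a1 4.08 ± 1.13 against 4.50 ± 1.11 CPM (SD, n = 3). The epithelial hemidesmosome gene Col17a1 measured 1.84, 0.571 and 1.53 CPM in control libraries 1 to 3 and 0.563, 1.08 and 1.40 CPM in Med12cKO libraries 1 to 3, at −0.35 (SE 0.52, 95% interval −1.51 to 0.82). It was lowest in control library 2 and Med12cKO library 1, so its groups overlap widely. Col26a1 and Col28a1, which fit no larger class, measured 23.3 ± 3.58 against 26.3 ± 1.44 CPM (SD, n = 3) and 4.50 ± 0.263 against 4.97 ± 2.31 CPM (SD, n = 3).

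Ratios between chains of a type overlapped between the groups for all abundant pairs. Per kilobase, the ratio of Col1a1 to Col1a2 was 0.736, 0.783 and 0.849 in control libraries 1 to 3 and 0.830, 0.632 and 0.844 in Med12cKO libraries 1 to 3. It was below 1 in every library, and Med12cKO library 2 was the lowest. The Col4a1 to Col4a2 ratio was 1.45 ± 0.0409 in control and 1.43 ± 0.105 in Med12cKO (SD, n = 3), and its highest library was 1.16 times its lowest. For Col6a1 to Col6a2 it was 0.973 ± 0.0223 in control and 0.893 ± 0.0735 in Med12cKO (SD, n = 3), and for Col5a1 to Col5a2 1.201 ± 0.0779 in control and 1.16 ± 0.117 in Med12cKO (SD, n = 3). Col4a5 exceeded Col4a6 by 7.59 to 9.35 times in the 6 libraries. The ratio of Col3a1 to Col1a1 transcripts was 2.503, 2.35 and 2.08 in control libraries 1 to 3 and 2.21, 2.90 and 1.98 in Med12cKO libraries 1 to 3. The groups overlap, and the fibres of types III and I themselves were not measured. The rare pair Col4a3 and Col4a4 was the exception, with 1.05, 0.928 and 1.52 in control libraries 1 to 3 and 0.739, 0.840 and 0.886 in Med12cKO libraries 1 to 3. Of the 11 ratios computed it alone did not overlap between groups, and it rests on 18 to 45 reads per value. Among single genes, 4.59% had all knockout libraries above all controls and 3.64% had them below. The share among ratios of other gene pairs was not computed. The ratios were not tested, since an exact two-sided permutation test of 3 against 3 libraries cannot give a p below 0.10.

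Collagen levels varied between libraries of the same genotype. Among the knockout libraries, Med12cKO library 2 was the highest for 27 of the 41 genes, and Med12cKO library 3 was the lowest for 27. The median log2 ratio of the collagens to the control mean was 0.08, 0.27 and −0.19 in Med12cKO libraries 1 to 3, against medians between −0.02 and −0.01 over all genes. Without Med12cKO library 3, 9 of 42 collagens tested had a positive log2 fold change at an unadjusted edgeR p under 0.05, and 0 a negative one. In that fit 3.18% and 4.4% of all genes had them, and the lowest adjusted p of a collagen was 0.514 in edgeR's test. Leaving out the library that was lowest for 27 of the 41 genes raises their fold changes by construction. The count of 9 is therefore no separate support for a difference between the groups.

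**Figure D3:**
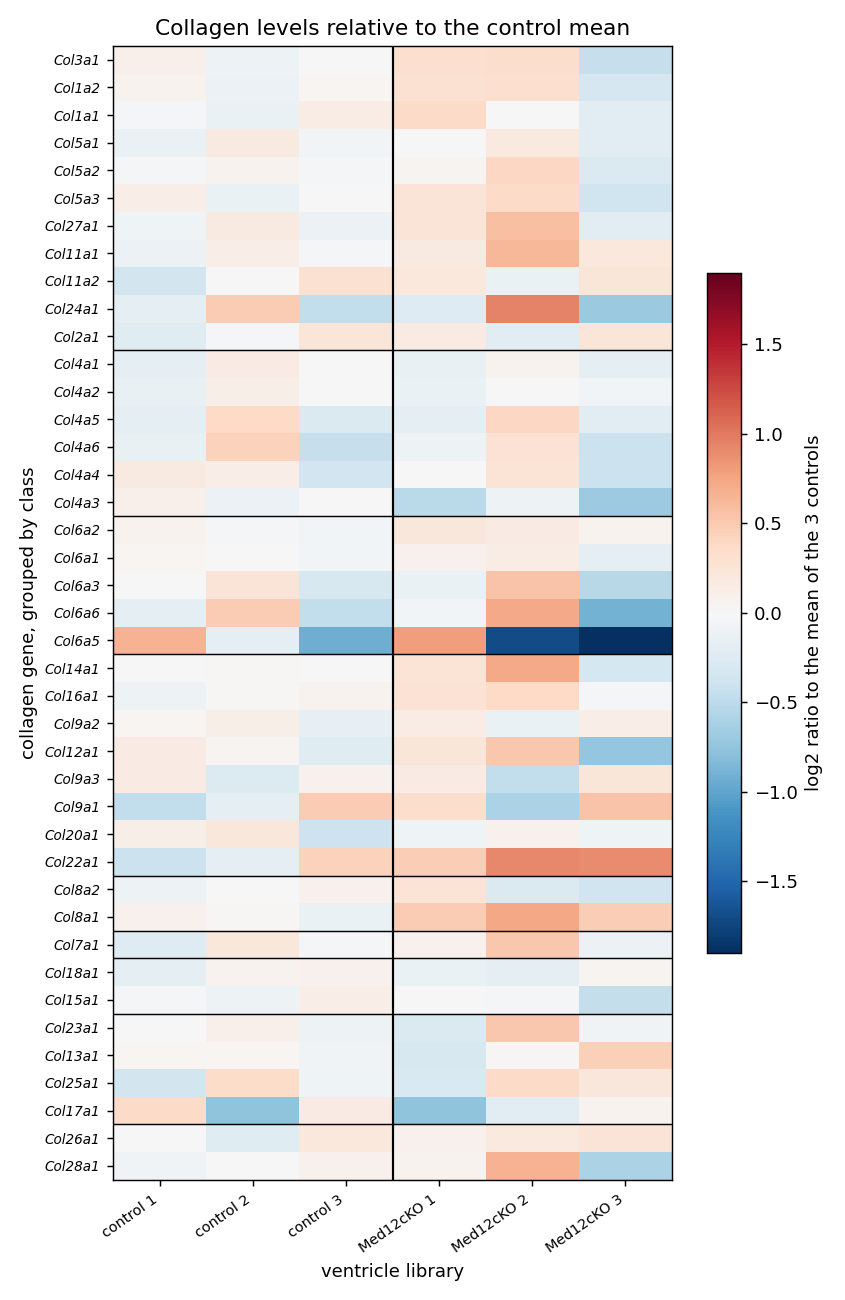
Log2 ratio of each tested collagen gene to the mean of the 3 controls, one column per library, rows grouped by class (0.5 CPM added before the ratio; red, above the control mean; blue, below). Med12cKO library 2 is mostly red and Med12cKO library 3 mostly blue. Col6a2, Col8a1, Col11a1, Col22a1 and Col26a1 are above the control mean in all 3 knockout libraries, and Col4a2 and Col4a3 are below it in all 3. The share of all genes with either pattern was not computed.

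In Med12cKO libraries 2 and 3 the deviations ran with transcript length. Taking each of these against the mean of the other 2 knockout libraries, the 12 collagen genes with transcripts of 7000 bases or more had a median log2 ratio of 0.51 in library 2, against 0.18 for the 29 shorter ones. In library 3 the values were −0.59 and −0.16. Libraries 2 and 3 are each part of the other's reference, so their opposite values are not separate observations. Across the 41 genes, Spearman's rho between length and this ratio was 0.54 in library 2 and −0.59 in library 3, and Pearson's r was 0.34 and −0.58. These are descriptions across genes that share their libraries. Over 12607 genes of all kinds, rho was 0.54 and −0.51 in the same libraries, and the cause of this slope was not tested. Among the controls, library 2 had a rho of 0.33 over the collagens and 0.40 over all genes, library 3 had −0.38 and 0.01, and library 1 had 0.00052 and −0.42. In Med12cKO library 1 rho was −0.14 and 0.03. Col6a6, with one of the longer transcripts, had a log2 ratio of 1.13 in Med12cKO library 2 and −1.28 in library 3. The medians of the shorter collagens were also above zero in Med12cKO library 2 and below zero in library 3, where short genes in general had medians of −0.06 and 0.01.

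**Figure D4:**
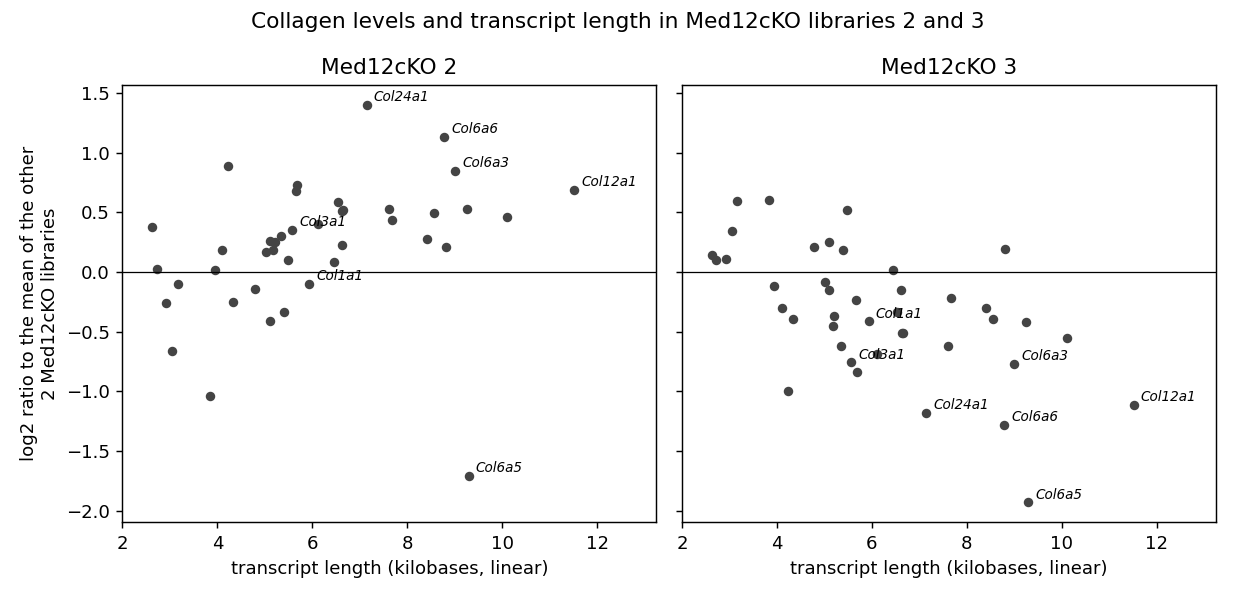
Log2 ratio of each tested collagen gene in Med12cKO library 2 (left) or 3 (right) to the mean of the other 2 Med12cKO libraries, against transcript length in kilobases, 1 point per gene. The 12 long transcripts have medians of 0.51 in library 2 and −0.59 in library 3, and Col6a5 is low in both. Each of these libraries is part of the other's reference mean.

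The level of the fibre collagens was set beside markers of the cells that make them. The summed level of 8 fibroblast genes, among them Pdgfra, Tcf21, Dcn and Lum, was 1792, 1314 and 1369.9 CPM in control libraries 1 to 3 and 1695, 1678 and 1245 CPM in Med12cKO libraries 1 to 3. These groups overlap, and 0 of the 8 genes was called. The summed CPM of Col1a1, Col1a2 and Col3a1 was 4.20 to 5.44 times this sum, with the lowest value in control library 1 and the highest in control library 3. Med12cKO library 3 was lowest for both sums. The 8 endothelial genes summed to 1412, 1599 and 1452 CPM in control libraries 1 to 3 and 1315, 1571 and 1351 CPM in Med12cKO libraries 1 to 3, and Col4a1 plus Col4a2 amounted to 2.02 to 2.23 times as much in every library. The 8 cartilage genes summed to 36.1, 39.6 and 43.6 CPM in control libraries 1 to 3 and 38.3, 53.1 and 51.02 CPM in Med12cKO libraries 1 to 3. Of these, 5 were tested, 4 had a positive log2 fold change (median 0.31) and 0 were called, while Matn1, Matn3 and Ucma stayed under 1 CPM in all libraries. Comp, a cartilage and tendon matrix protein, measured 16.2, 17.97 and 19.4 CPM in control libraries 1 to 3 and 19.9, 17.5 and 30.8 CPM in Med12cKO libraries 1 to 3. The part of cartilage in the collagen values was not tested. All 6 bone genes stayed under 1 CPM. Acan, which heart valves also express, measured 14.6 ± 0.810 against 16.7 ± 8.44 CPM (SD, n = 3).

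**Figure D5:**
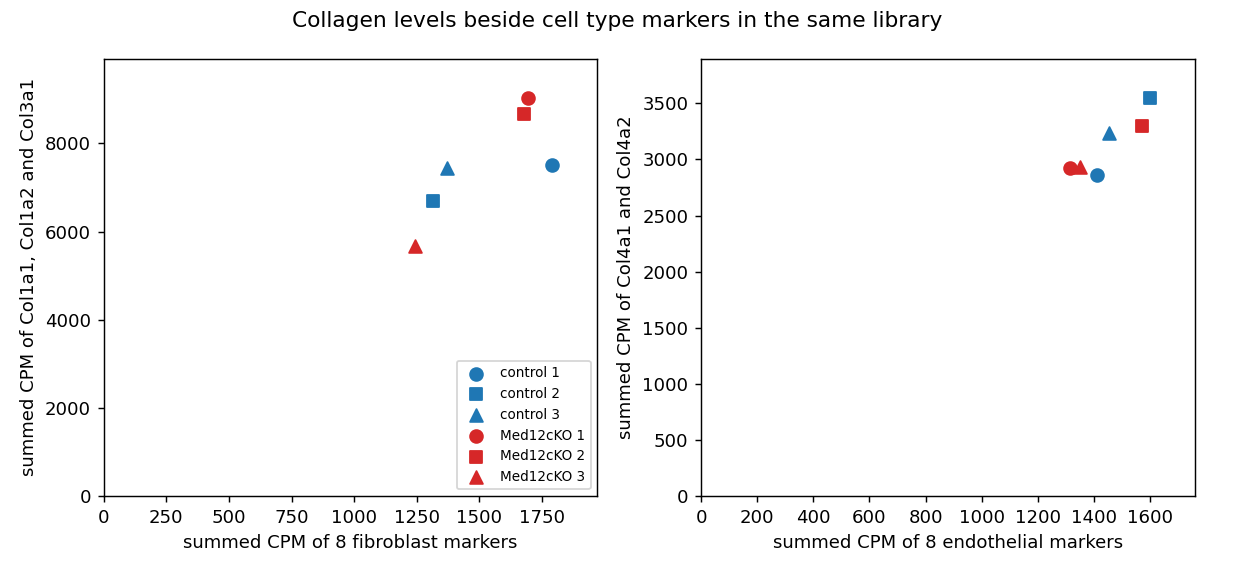
Summed CPM of Col1a1, Col1a2 and Col3a1 against the summed CPM of 8 fibroblast markers (left), and of Col4a1 and Col4a2 against 8 endothelial markers (right), 1 point per library, axes from 0. The 2 genotypes are intermixed in both panels, and Med12cKO library 3 is lowest on both axes of the left panel.

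Genes that fold, trim, cross-link, assemble, degrade or sense collagen are described from 70 symbols, of which 65 were tested. Of these 65, 0 were called by edgeR or DESeq2, where 0.022% and 0.539% of all genes were. A positive log2 fold change was found for 47 of 65, beside 52.2% of all genes, with a median of 0.08. The unadjusted edgeR p was under 0.05 for 2 higher genes and 0 lower ones, against 2.16% and 1.61% of all genes. Of the 65 tested, 5 had knockout libraries above all controls and 0 had them below, against 4.59% and 3.64% of all genes. In the folding and modification group 19 of 21 were positive (median 0.09). P4hb, a subunit of prolyl 4-hydroxylase, measured 484, 469 and 449 CPM in control libraries 1 to 3 and 492, 511 and 489.5 CPM in Med12cKO libraries 1 to 3. Leprel2, a prolyl 3-hydroxylase, measured 64.9, 59.1 and 64.1 CPM in control libraries 1 to 3 and 72.5, 67.95 and 70.2 CPM in Med12cKO libraries 1 to 3. In both the knockout libraries lay above all controls, by little. Serpinh1, the collagen chaperone HSP47, measured 789 ± 51.3 against 852 ± 55.4 CPM (SD, n = 3), with overlapping groups (named after its values were seen).

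Among the propeptide-cleaving enzymes 6 of 7 were positive, and Adamts3 measured 16.3, 16.5 and 13.7 CPM in control libraries 1 to 3 and 18.3, 20.98 and 16.97 CPM in Med12cKO libraries 1 to 3, a log2 fold change of 0.28 (SE 0.16, 95% interval −0.09 to 0.65). Sparc, a collagen-binding matrix protein and chaperone, measured 2499, 2054 and 2127 CPM in control libraries 1 to 3 and 2699, 2648 and 2621 CPM in Med12cKO libraries 1 to 3. The knockout libraries lay close together above all controls, at 0.25 (SE 0.15, 95% interval −0.08 to 0.59), and the unadjusted p was 0.121 in edgeR's test and 0.0215 in DESeq2 (adjusted p = 0.959). In the degradation group, 5 of 10 were positive, and Ctsk, the collagen-cleaving cathepsin K, measured 27.4, 19.97 and 24.8 CPM in control libraries 1 to 3 and 27.7, 32.6 and 34.6 CPM in Med12cKO libraries 1 to 3, at 0.39 (SE 0.16, 95% interval 0.04 to 0.75). Of the lysyl oxidase family 4 of 5 were positive with a median of 0.08, and Lox itself varied from 62.7 CPM in Med12cKO library 3 to 167 CPM in Med12cKO library 2. Collagen receptors had 5 of 7 positive (median 0.14) with overlapping groups for each. Of the matrix growth factors, Ctgf had an unadjusted p of 0.0401 in edgeR's test, with 123, 89.4 and 116 CPM in control libraries 1 to 3 and 185, 192 and 106 CPM in Med12cKO libraries 1 to 3. Med12cKO library 3 lay among the controls, and it did not pass (adjusted p = 0.9999). Ctgf and Lox were named after their values were seen.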

How the data were processed

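Total RNA from both ventricles was isolated with TRIzol per the labels' protocols. The authors deposited unnormalized counts, 1 whole number per symbol and library, in 6 columns named as the sample descriptions. Per the submitters' processing notes, TopHat2 2.0.0, featureCounts and edgeR 3.14.0 were used with build GRCm38 (mm10). The annotation and strand setting are not given in the sources used here, so reads of overlapping genes may be split. Of the 44 collagens 13 share exon bases with another gene model, 2 of them 5% or more (Col4a3 and Col9a3).

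After a filter on low counts (filterByExpr, min.count 10, min.total.count 15) and TMM scaling, genes were tested with edgeR 4.0.16's robust quasi-likelihood F test in R 4.3.3, with Benjamini-Hochberg over all genes tested. An SE was derived from each fold change and its F statistic. Alternatives were DESeq2 1.42.0, limma-voom (limma 3.58.1), other scalings, filters and blocks, and each library left out. CPM per kilobase used the longest principal protein-coding transcript of GENCODE M21, found for all 44 genes. Within a group, library pairs differed by 14.5 to 29.2 chi-square units per degree of freedom, so none was a repeat run. Depth limits a count of 0 to between 0.285 and 0.345 CPM.

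Values in every library are given for collagens called by a test, with separated groups and an average log2 CPM of at least 1, among the 10 highest per kilobase, of types I, III, IV, V, VI, XV and XVIII, or with the 4 largest changes per direction. In the pathway groups, up to 2 genes per direction with separated groups are named. The members, lists and tests were chosen with earlier results of these data known.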

Additional observations from a re-analysis of the deposited data

How the results depend on the processing

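The number of collagens called was 0 under every alternative tried. Over all genes 3 were called, against 64 with DESeq2, 1 in the 4 libraries with the letter I and 1 to 3 when a library was left out, with 1 without Med12cKO library 3. Med12 passed with DESeq2 (log2 fold change −1.06, adjusted p = 0.0228). The collagen median stayed within the spread of the libraries under all alternatives, from −0.03 without Med12cKO library 2 to 0.15 without Med12cKO library 3.

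In all, 46 recomputed log2 fold changes of named collagens turned sign, none of them called. With limma-voom, the sign turned for Col6a3 (−0.023) and Col6a6 (−0.019). With library totals alone, the sign turned for Col4a4 (0.017). With the replicate block, the sign turned for Col6a3 (−0.020) and Col6a6 (−0.015). With the first letter of the description as a block, the sign turned for Col6a3 (−0.030) and Col6a6 (−0.037). In the 4 libraries with the letter I, the sign turned for Col6a1 (−0.015), Col5a1 (−0.14), Col5a2 (−0.12), Col4a5 (−0.26), Col6a3 (−0.30), Col6a6 (−0.50), Col6a5 (0.57) and Col14a1 (−0.0059). When each library was left out, the log2 fold changes that turned sign ranged as follows: Col5a1 −0.091 to 0.10, Col4a5 −0.20 to 0.26, Col6a6 −0.43 to 0.40, Col6a5 −2.19 to 0.13, Col4a4 −0.22 to 0.16, Col4a1 −0.17 to 0.0053, Col4a2 −0.13 to 0.0029, Col4a6 −0.25 to 0.24, Col6a1 −0.045 to 0.11, Col6a3 −0.31 to 0.24, Col3a1 −0.012 to 0.32, Col1a1 −0.11 to 0.20, Col5a2 −0.11 to 0.23, Col5a3 −0.038 to 0.31 and Col14a1 −0.010 to 0.50. The cause was not tested.

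Libraries of the same replicate number had deviations from their group means that correlated at −0.32, 0.46 and −0.36, and only library 2 of each group correlated best with its own number. The highest correlation, 0.73, was between control library 3 and Med12cKO library 1, the ones with T-cell transcripts. Other traits of a library thus enter these values, and they cannot show whether libraries of the same number share a litter or batch. With the replicate block 2 genes were called, 0 of them collagens, and the collagen median was 0.06. Col22a1, Col17a1 and Col2a1 rest on 83, 67 and 94 reads over the 6 libraries, so counting error bears on their values.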
